A study of Mus musculus with 46 samples.

Results

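Acetylation of histone H3 at lysine 27 (H3K27ac) was compared between the livers of PA mice, a model of propionic acidemia, and of wild-type (WT) mice. The 4 samples taken were all those labelled H3K27ac, 2 WT and 2 PA livers, out of 46 samples in the series, of which 38 had a peak list. All animals were female, on the FVB background, 11 weeks old and fed a standard chow diet. The PA mice are described as Pcca-/- with the hypomorphic A138T allele, so some activity of propionyl-CoA carboxylase may remain, and the WT mice served as controls. Frozen liver was digested with micrococcal nuclease, and nucleosomes were immunoprecipitated without crosslinking (native ChIP-seq) from tissue preparations labelled A. The series describes 2 biological replicates per genotype, and nothing in the labels says whether the animals shared a litter or a day of preparation.

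H3K27ac is deposited mainly by the acetyltransferases p300 and CBP and marks active promoters and active enhancers, the distal elements that raise transcription of nearby genes. In liver, broad stretches of the mark cover the genes that define the hepatocyte, such as those for albumin and the apolipoproteins. The product of Pcca is part of propionyl-CoA carboxylase, which in mitochondria disposes of propionyl-CoA from branched-chain amino acids, odd-chain fatty acids and gut propionate. Propionyl-CoA and acetyl-CoA are both donors for acylation of histone lysines.

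The deposited lists give the start and end of each peak, with no height, count or score, and their sequencing depth is unknown here. A longer peak is therefore a longer stretch called as marked, not a stronger mark, and a region that is not listed is not shown to lack the mark. For each gene the length under peaks was measured in 2 places, in base pairs (bp). The promoter window was 5000 bp long and centred on the transcription start. The distal domain was the gene with 50 kb on each side, without the promoter windows of any protein-coding gene. Whole liver was used, so a shift in the number of cells of a type and a shift in the mark per cell cannot be told apart.

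The results turn in part on 6 promoters, the 3 largest gains and the 3 largest losses of promoter coverage that have a sequence in the table used, and the 250 bases upstream of each start are shown here in gene sense. On the side of PA they are Cfap44, which encodes a component of the ciliary axoneme, at chr16:44394549-44394798 on the plus strand, Gal3st1, which encodes the sulfotransferase that makes sulfatide, at chr11:3983401-3983650 on the plus strand, and Fads3, a member of the fatty acid desaturase family, at chr19:10041298-10041547 on the plus strand. On the side of WT they are Sult3a1, a sulfotransferase known for female-biased expression in mouse liver, at chr10:33857472-33857721 on the plus strand, Hsd3b5, a steroid-metabolizing enzyme known for male-biased expression, at chr3:98645535-98645784 on the minus strand, and Cyp3a44, a female-biased cytochrome P450, at chr5:145805875-145806124 on the minus strand. Sequences are from RefSeq, build GRCm38.p6. Capitals mark matches, on either strand, to the letters of 7 motifs.
Cfap44: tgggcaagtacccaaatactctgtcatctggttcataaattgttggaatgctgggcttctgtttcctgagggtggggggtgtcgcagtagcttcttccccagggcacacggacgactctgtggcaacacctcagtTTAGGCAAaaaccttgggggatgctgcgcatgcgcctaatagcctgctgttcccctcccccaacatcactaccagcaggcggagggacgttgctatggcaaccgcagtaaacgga
Gal3st1: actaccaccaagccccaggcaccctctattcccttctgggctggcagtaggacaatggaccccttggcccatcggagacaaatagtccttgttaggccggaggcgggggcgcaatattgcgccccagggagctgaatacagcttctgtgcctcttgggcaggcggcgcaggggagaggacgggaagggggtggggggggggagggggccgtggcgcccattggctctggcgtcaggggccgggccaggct
Fads3: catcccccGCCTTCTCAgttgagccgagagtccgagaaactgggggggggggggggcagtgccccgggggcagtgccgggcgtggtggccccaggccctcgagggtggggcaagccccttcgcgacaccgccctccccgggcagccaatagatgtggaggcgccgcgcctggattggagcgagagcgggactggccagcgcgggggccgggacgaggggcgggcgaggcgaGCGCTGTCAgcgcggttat
Sult3a1: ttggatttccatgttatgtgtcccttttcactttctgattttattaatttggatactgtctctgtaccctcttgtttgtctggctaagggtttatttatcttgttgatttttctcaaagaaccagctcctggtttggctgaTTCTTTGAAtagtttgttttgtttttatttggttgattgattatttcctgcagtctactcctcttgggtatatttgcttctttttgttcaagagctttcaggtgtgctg
Hsd3b5: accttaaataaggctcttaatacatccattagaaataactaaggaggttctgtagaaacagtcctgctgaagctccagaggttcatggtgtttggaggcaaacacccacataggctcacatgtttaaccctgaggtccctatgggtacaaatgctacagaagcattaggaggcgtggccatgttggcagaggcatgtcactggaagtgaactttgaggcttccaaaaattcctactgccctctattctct
Cyp3a44: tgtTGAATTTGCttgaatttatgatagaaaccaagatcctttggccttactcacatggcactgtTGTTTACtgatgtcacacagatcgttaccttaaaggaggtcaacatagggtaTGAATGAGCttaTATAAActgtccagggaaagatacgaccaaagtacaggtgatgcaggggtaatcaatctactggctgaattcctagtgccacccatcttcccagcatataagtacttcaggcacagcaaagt

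The 3 upstream sequences on the side of WT hold fewer CpG than the 3 on the side of PA. Sult3a1 holds 0 CpG, Hsd3b5 holds 1 and Cyp3a44 holds 2, against 9 in Cfap44, 12 in Gal3st1 and 26 in Fads3. The ratio of observed to expected CpG was 0.473 in Cfap44, 0.444 in Gal3st1 and 0.778 in Fads3. The median over all promoters in the table was 0.554, so only Fads3 lay above it. The motifs searched were STAT5 (TTCNNNGAA), an antioxidant element (TGANNNNGC), the PPAR DR1 element, searched without a mismatch, FOXA (TGTTTAC), the TATA box (TATAAA), C/EBP (TTGCNNAA) and the E-box (CACGTG). Sult3a1 matched STAT5 at -109 from the start. Cyp3a44 matched FOXA at -186, TATAAA at -122 and the antioxidant element at -247 and -134. Cfap44 matched C/EBP at -115, Fads3 matched the antioxidant element at -242 and -19, and Gal3st1 and Hsd3b5 matched none. No match overlapped another. A match describes letters and not a bound site.

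The peaks carried the marks of hepatocyte chromatin. All 13 hepatocyte marker genes were covered in their promoter windows, with a median of 5000 bp in WT and in PA. Their summed coverage was 62.8 and 64.5 kb in WT and 64.4 and 64.4 kb in PA. Since 10 of the 13 windows were full in all 4 libraries, these sums had little room to rise. Promoter windows of other cells were mostly at 0 in all 4 libraries: 8 of 10 Kupffer cell markers (among them Clec4f, Vsig4, Adgre1 and Timd4), 9 of 13 stellate cell markers (among them Lrat, Des and Col1a1), 4 of 7 cholangiocyte markers (Krt19, Krt7, Epcam and Cftr), 6 of 8 T and NK cell markers, 4 of 6 B cell markers and 6 of 7 neutrophil markers. All 6 neuron and all 6 kidney markers were at 0, as were 4 of 6 skeletal muscle markers. Sinusoidal endothelial markers were the exception, with 0 of 10 at 0 in every library and sums of 21.9 and 20.99 kb in WT and 20.997 and 22.45 kb in PA. The sums of the Kupffer list (0.5 and 0.541 kb in WT, 0 and 0.513 kb in PA) and of the stellate list (1.71 and 2.09 kb in WT, 1.08 and 3.09 kb in PA) were small and overlapped between the genotypes. Pcca itself was marked at its promoter in every liver, with 3587 and 3997 bp in WT and 3959 and 4037 bp in PA, and the difference of 206 bp (SE 208) did not pass limma (adjusted p = 0.791). Its distal domain held 32801 and 40381 bp in WT and 33124 and 34614 bp in PA (adjusted p = 0.629 in limma). These values test neither the Pcca-/- genotype nor the A138T allele.

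Over all 92 promoters with both PA libraries at least 1000 bp below WT on average and no overlap of the groups, the median ratio of observed to expected CpG was 0.373. It was 0.676 over the 579 promoters on the side of PA and 0.722 over the 10627 tested promoters in the table. TATAAA was present in 15.2% of the first set, 7.25% of the second and 7.07% of the tested promoters, and in 12.3% of all 17273 promoters. Shares for STAT5 were 6.52%, 6.56% and 6.04% in the same order, with 6.73% of all promoters. Those for FOXA were 2.17%, 2.42% and 2.32% (2.66% of all), and those for the antioxidant element 42.4%, 36.3% and 36.6% (35.2% of all). C/EBP was found in 7.61%, 7.77% and 7.64% (9.20% of all) and the E-box in 4.35%, 6.91% and 8.21% (6.66% of all). The PPAR DR1 letters were found in 0 of either set and in 0.0463% of all promoters.

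The PA livers had more H3K27ac peaks and longer ones. Peak numbers were 63531 and 62670 in WT and 66779 and 69860 in PA. The length under peaks was 137.6 and 147.8 Mb in WT and 161.2 and 165.1 Mb in PA, a mean of 142.7 Mb ± 7.21 against 163.2 Mb ± 2.74 (SD, n = 2 each) and a ratio of 1.14. Both PA libraries lay above both WT libraries in each measure. Promoter peaks, those within 1 kb of a start, accounted for 7.29 Mb of the increase and distal peaks for 13.2 Mb, and each class was 1.14 times longer in PA. The median promoter peak measured 2528 and 2731 bp in WT and 2892 and 2874 bp in PA. The median distal peak measured 833 and 910 bp in WT and 937 and 912 bp in PA, so that the groups came within 2 bp of each other. The longest peaks differed most by ratio: peaks over 10 kb numbered 1653 and 2075 in WT and 2307 and 2373 in PA, 1.26 times as many. The median over all peaks, 1080 and 1189.5 bp in WT and 1209 and 1151.5 bp in PA, overlapped between the genotypes (exact permutation p = 0.667, two-sided, n = 2 each). For the other measures the same exact permutation test gave p = 0.333, the smallest value that 2 against 2 allows. The share of peaks at promoters was 18.9% and 19.3% in WT and 18.4% and 17.7% in PA.

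**Figure D1:**
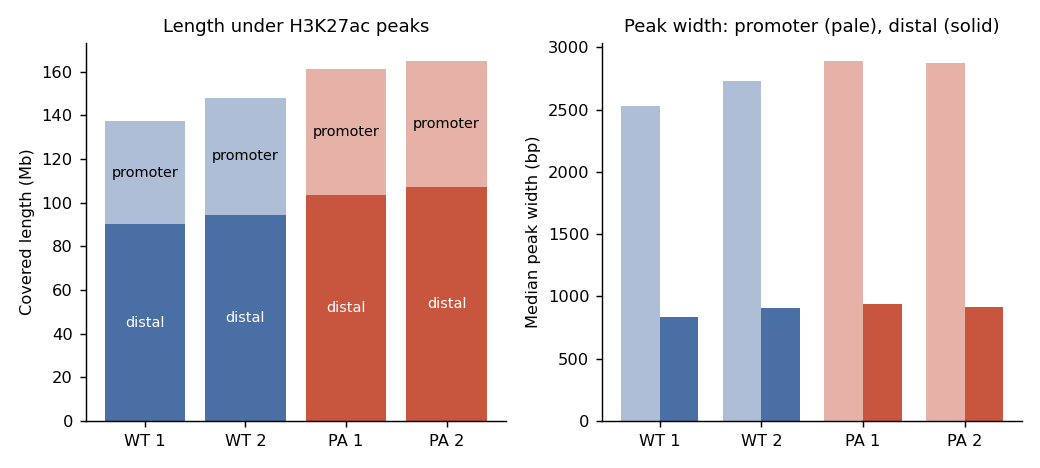
Left, length under H3K27ac peaks (Mb) in each of the 4 libraries, split into distal peaks (solid) and peaks within 1 kb of a start (pale). Right, median width (bp) of promoter peaks (pale) and distal peaks (solid), with WT in blue and PA in red. Covered length was 137.6 and 147.8 Mb in WT and 161.2 and 165.1 Mb in PA, and median promoter peak width was 2528 and 2731 bp against 2892 and 2874 bp.

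Merging the peaks of the 4 libraries gave 98423 regions, of which 30290 were listed in all 4. The Jaccard index of covered bases was 0.616 for the WT pair, 0.633 for the PA pair and 0.589 to 0.611 for pairs of unlike genotype. Of 13511 promoter regions, 219 were listed in both PA livers and in neither WT liver (1.62%), and 79 showed the reverse (0.585%). Of 84912 distal regions, 4067 were found in PA only (4.79%) and 1763 in WT only (2.08%). With promoter and distal regions together, 4286 were listed in PA only and 1842 in WT only. Pairs of 1 WT and 1 PA liver alone shared 1806, 2096, 2040 and 2394 regions. The WT-only count thus lay within the range of these mixed pairs, and the PA-only count lay above it. Among regions listed in all 4 libraries, 1695 of 10865 promoter regions were wider in PA (15.6%) and 252 were narrower (2.32%). Here wider means that both PA lengths exceeded both WT lengths and that the means lay at least 1000 bp apart. At distal regions 3400 of 19425 were wider (17.5%) and 866 were narrower (4.46%). Shares of presence are over all regions, and shares of width are over regions listed in all 4 libraries. The 2 kinds of share are therefore not ranked against each other. Listing in 1 genotype only had the larger share at distal regions (4.79% and 2.08%, against 1.62% and 0.585% at promoters).

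**Figure D2:**
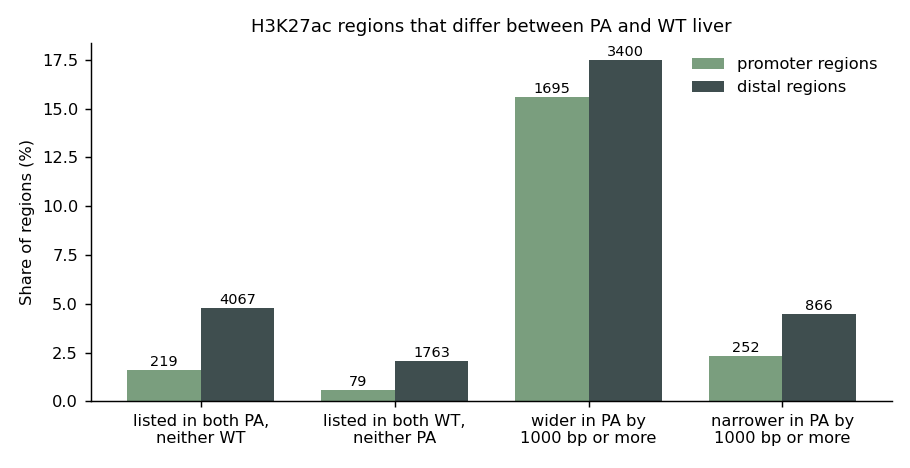
Share of H3K27ac regions (%) in each class, promoter regions in light green and distal regions in dark grey, with the number of regions above each bar. The first 2 classes are shares of all regions and the last 2 of regions listed in all 4 libraries. Wider regions in PA made up 15.6% of promoter and 17.5% of distal regions listed in all 4 libraries.

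The excess of regions found in PA only over WT only depended on which liver was left out. Without WT 1 there were 6788 distal regions in PA only and 10776 in WT only, and without WT 2 there were 7579 and 11047, so the order turned. Without PA 1 the counts were 18891 and 3607, and without PA 2 they were 16846 and 3954. A region then needs 1 library fewer on the depleted side, so these counts favour the group with 1 library. The promoter counts were 390 and 366 without WT 1, 498 and 335 without WT 2, 641 and 221 without PA 1, and 605 and 203 without PA 2. The excess of wider over narrower regions held in each case. It was 4135 against 1978 distal regions without WT 1, 5359 against 1344 without WT 2, 4900 against 1475 without PA 1 and 4478 against 1671 without PA 2. At promoters it was 1844 against 690, 2653 against 368, 2137 against 449 and 2122 against 509 in the same order.

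The median length of regions found in 1 genotype only was 1008 bp (PA) and 947 bp (WT) at promoters and 973 bp (PA) and 945 bp (WT) at distal sites, against 3294 bp over all promoter regions and 796 bp over all distal regions. Few exceeded 2 kb, 15 and 6 at promoters and 269 and 128 at distal sites. About as many distal regions of PA (46.7%) and of WT (47.1%) lay within 5 kb of a region of all 4 libraries, and the share was 48.8% over all distal regions that were not listed in all 4. They lay a median of 24299 bp (PA) and 27111 bp (WT) from the nearest start, near the 24720.5 bp of all distal regions. Wider and narrower regions were long ones, with median lengths of 8628 and 9139.5 bp at promoters and 5210 and 5625 bp at distal sites. On chromosomes 1 to 19, regions found in PA only made up between 3.62% (chromosome 19) and 4.93% (chromosome 6) of the regions of a chromosome. The X chromosome lay above all of these with 6.08% (88 of 1448 regions). Regions in WT only made up between 1.33% (chromosome 3) and 2.33% (chromosome 14).

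The longest promoter region found in PA only lay over the start of Cfap44, at chr16:44392127-44399107, and measured 6981 and 4578 bp in the 2 livers. Lgals4, which encodes the lectin galectin-4, held the next at chr7:28831914-28835916 with 4003 and 1355 bp, where it also overlaps the neighbouring Ech1. A region at chr7:45469168-45472787 beside Dhdh, which encodes a dihydrodiol dehydrogenase, measured 1985 and 2428 bp. The start of Auts2, a regulator of neuronal development and a subunit of a Polycomb complex, was covered by 2974 and 2946 bp at chr5:132541236-132544736. The last overlapped Lcor, a nuclear receptor corepressor, and the start of Slit1, an axon guidance ligand, at chr19:41596031-41599455 with 1099 and 3425 bp. Coverage in both WT livers was 0 at each of these 5 regions.

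Of the promoter regions found in WT only, the one at Hsd3b5 was the most even, with 3329 and 3255 bp in WT at chr3:98644362-98648139. The longest lay at an internal start of Cmah, which encodes the enzyme that makes the sialic acid N-glycolylneuraminic acid, at chr13:24411594-24416118, and its lengths of 643 and 4525 bp differed widely between the WT livers. Rac2, a small GTPase of blood cells, had 1267 and 2195 bp at chr15:78571172-78574231. Bmp8b, a bone morphogenetic protein, had 1386 and 2684 bp at chr4:123106086-123108769, and Celf2, an RNA-binding protein, had 1529 and 775 bp at chr2:6719313-6721598. Neither PA liver listed any of the 5.

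Among distal regions found in PA only, the longest lay within Srgap2, which encodes a GTPase-activating protein, at chr1:131417644-131424779. It measured 6294 and 6504 bp in the PA livers and was the only one of the 5 longest in which these were of like length. The next at chr19:6544551-6549369, 1480 bp from the start of the urate transporter gene Slc22a12, measured 4819 and 500 bp. Regions within Ryk, a Wnt coreceptor (chr9:102845229-102849928), beyond Tns3 (chr11:8235621-8240141) and near Clhc1 (chr11:29595738-29600187) measured 813 and 4147 bp, 1000 and 4363 bp and 4345 and 2021 bp. In these last 4 regions the calls of the PA livers differed widely in length.

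The 5 longest distal regions found in WT only were each listed at similar length in both WT livers. A region of 11086 bp at chr5:33456657-33467742, 22566 bp from the homeobox gene Nkx1-1, measured 8817 and 9730 bp in WT. The region at chr1:57365718-57373992 measured 5103 and 6733 bp. Another, 7488 bp from Mup-ps16 among the genes of the major urinary proteins at chr4:61803902-61812139, measured 7358 and 7121 bp, and one within Cmah at chr13:24372629-24380219 measured 7462 and 6344 bp. The fifth lay within Dym on chromosome 18 and measured 5628 and 6581 bp. In all 5, both PA livers were at 0. Mup genes are near-identical copies of each other, and reads that map to several copies may have been placed or dropped in ways the lists do not show.

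The 5 promoter regions most widened in PA lay at Ubap1, Cps1, Tdo2, Tmem51 and Ass1. The region over Cps1, which encodes the first enzyme of the urea cycle, measured 26531 and 28930 bp in WT and 40175 and 40339 bp in PA at chr1:67108309-67149828. Ass1, another urea cycle enzyme, held 29016 and 27873 bp in WT and 37554 and 35029 bp in PA at chr2:31450350-31489647. The region of Tdo2, the enzyme that starts tryptophan breakdown, measured 32111 and 37409 bp in WT and 44044 and 43623 bp in PA at chr3:81960788-82007539. Ubap1, an endosomal sorting protein, showed the largest difference, with 7594 and 6973 bp in WT and 24803 and 17507 bp in PA at chr4:41344857-41370381, and Tmem51 held 27328 and 27199 bp in WT and 34328 and 36079 bp in PA at chr4:142049360-142086037. Both PA livers exceeded both WT livers at each, by definition of the class.

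The narrowest in PA was the region over Sult3a1, with 12900 and 12921 bp in WT and 1161 and 2465 bp in PA at chr10:33846453-33861607. Egfr, the receptor for epidermal growth factor, held 21114 and 23997 bp in WT and 14585 and 13919 bp in PA over its promoter at chr11:16737118-16761360. A second region further into Egfr, at chr11:16775537-16815679, differed the other way, with 26474 and 28196 bp in WT and 37037 and 37249 bp in PA. Cmah held 18584 and 23021 bp in WT and 12942 and 13751 bp in PA at chr13:24320095-24343115, and Mup-ps16 held 11275 and 10958 bp in WT and 3881 and 4710 bp in PA at chr4:61791820-61803770. The region at Slc10a2, a bile acid transporter gene, held 13075 and 13661 bp in WT and 4335 and 9654 bp in PA at chr8:5093542-5108531, where the PA livers differed from each other by more than 2 to 1.

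At distal sites the widest differences in favour of PA lay within Fkbp5, a chaperone of steroid receptors induced by glucocorticoids, with 47469 and 43371 bp in WT and 59028 and 56617 bp in PA at chr17:28406965-28466507. A region 7257 bp from Arl4a measured 4952 and 2695 bp in WT and 14969 and 13482 bp in PA at chr12:40015152-40030120. Tbc1d1, a regulator of glucose transporter traffic in muscle, held 22593 and 28174 bp in WT and 37348 and 33606 bp in PA at chr5:64311794-64350502, and Mpzl1 held 18847 and 10017 bp in WT and 26661 and 22222 bp in PA at chr1:165604907-165632315. In favour of WT, a region within Dntt, the template-independent DNA polymerase of lymphocyte precursors, measured 11362 and 13072 bp in WT and 1190 and 1142 bp in PA at chr19:41041319-41054390. A second within Cmah measured 17347 and 17669 bp in WT and 4929 and 10843 bp in PA at chr13:24349841-24368388. One beyond Cyp3a41b measured 11888 and 14286 bp in WT and 4289 and 4172 bp in PA at chr5:145630928-145645213. Regions near Shld1 (25094 and 24857 bp in WT and 20246 and 12215 bp in PA) and within Nsun2 (24481 and 22866 bp in WT and 11514 and 19258 bp in PA) completed the 5. The 2 PA livers stood apart from each other in the last 2, with PA 2 the lower at Shld1 and PA 1 the lower at Nsun2. In limma over all 54942 regions listed in at least 2 libraries, 0% passed an adjusted p of 0.05 in either direction, and the smallest adjusted p was 0.139. At an unadjusted p under 0.05 there were 6971 regions higher and 2279 lower in PA. When the spread was estimated over the 36 libraries of all 9 antibodies, 6126 regions were called higher and 2016 lower. Each liver preparation gave several of these libraries, so they are not 36 independent samples. These calls also borrow the spread of the other antibodies.

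At promoter windows most genes differed little. Of 21627 protein-coding genes, 13330 were covered in at least 2 libraries, and the median difference between PA and WT was 150.25 bp. Both PA livers lay above both WT livers for 3915 of them (29.4%) and below for 1018 (7.64%). After quantile normalization of the 4 libraries the counts were 2146 above and 2579 below. Leaving out 1 library gave 5318 above and 2877 below (without WT 1), 6962 and 1930 (without WT 2), 5620 and 2471 (without PA 1) and 5839 and 2371 (without PA 2). With the means at least 1000 bp apart there were 744 above (5.58%) and 126 below (0.945%), and after quantile normalization 386 and 258. Without 1 library these were 808 and 329 (WT 1), 1424 and 189 (WT 2), 1034 and 263 (PA 1) and 1058 and 279 (PA 2). Limma called 0 genes higher and 0 lower at an adjusted p under 0.05 (0% of 13330, smallest adjusted p 0.113), with 1132 higher and 223 lower at an unadjusted p under 0.05. With the spread of the 36 libraries of 9 antibodies, which are not independent samples, 43 were called higher and 15 lower. Without WT 1 limma called 235 higher and 0 lower, and without WT 2 it called 367 higher and 2 lower, when the single WT library left is assumed to vary like the PA pair. Without PA 1 or PA 2 it called 0.

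The 10 promoters with the largest gains in PA were Cfap44, Lpl, Gal3st1, Fads3, Auts2, Hsd3b1, Lgals4, Tinagl1, Mrgpre and Pla2g12a. Lpl encodes lipoprotein lipase, which releases fatty acids from circulating triglyceride and is little expressed in healthy adult liver. Its window held 500 and 1474 bp in WT and 5000 and 4418 bp in PA, a difference of 3722 bp (SE 496). Fads3 held 721 and 0 bp in WT and 4359 and 2428 bp in PA (3033 bp (SE 845)). Pla2g12a, a secreted phospholipase A2, held 1788 and 1729 bp in WT and 4671 and 4068 bp in PA (2611 bp (SE 319.6)). In these 3 genes both WT livers had at most 1788 bp and both PA livers at least 2428 bp, and Fads3 differed most between the PA livers. Gal3st1 held 0 and 917 bp in WT and 4320 and 2681 bp in PA (3042 bp (SE 771)), and Hsd3b1, a steroid dehydrogenase, 637 and 0 bp in WT and 2600 and 3747 bp in PA (2855 bp (SE 541)). Cfap44 had no listed base in WT and most of the window in PA, with 0 and 0 bp in WT and 5000 and 3211 bp in PA (4105.5 bp (SE 735)). The groups were far apart in all 3, and the PA livers also differed from each other.

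Auts2 had the smallest SE of the 10, with 0 and 283 bp in WT and 2974 and 3027 bp in PA and a difference of 2859 bp (SE 143). Tinagl1, a matrix protein, held 61 and 857 bp in WT and 2697 and 3656 bp in PA, and Mrgpre, an orphan G protein-coupled receptor, 1450 and 1170 bp in WT and 4483 and 3394 bp in PA. Lgals4 held 0 and 208 bp in WT and 4003 and 1712 bp in PA, so its PA livers differed widely from each other. Adjusted p in limma with Benjamini-Hochberg adjustment lay between 0.15 (Auts2) and 0.508 (Lgals4) for the 10 genes. Of the 10, 8 were also higher in both PA livers with at least 5 of the 8 other antibodies, as were 31.3% of the 3915 promoters with H3K27ac above and 19.6% of all tested promoters, and Lpl, Cfap44, Gal3st1 and Fads3 with 8 of 8. Lgals4 and Tinagl1 were so with 1 of 8. At Tinagl1 both PA livers were below both WT livers with 2 of 8, and the PA mean was below with 5. At Lgals4 the PA mean was above with 6 of 8.

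The 10 promoters with the largest losses in PA were Sult3a1, Hsd3b5, Cyp3a44, Ugt3a1, Fam124a, Cyp3a16, Chac1, Sult5a1, Serpina9 and Zdhhc14. Sult3a1 held 4323 and 4352 bp in WT and 0 and 500 bp in PA, a difference of -4087.5 bp (SE 234). Hsd3b5 held 3329 and 3650 bp in WT and 0 and 0 bp in PA (-3489.5 bp (SE 156)), and Cyp3a44 3796 and 3456 bp in WT and 500 and 0 bp in PA (-3376 bp (SE 263)). Cyp3a16, a neighbour of Cyp3a44 and also female-biased, held 2663 and 2454 bp in WT and 0 and 0 bp in PA (-2558.5 bp (SE 118)). These 4 windows held between 2454 and 4352 bp in WT and at most 500 bp in PA. Ugt3a1, a sugar transferase for small molecules, held 5000 and 4887 bp in WT and 1355 and 3073 bp in PA, and Sult5a1, a further sulfotransferase, 4995 and 5000 bp in WT and 3361 and 2236 bp in PA. Their PA livers kept part of the mark and differed from each other by over 1000 bp.

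Chac1 encodes an enzyme that degrades glutathione and is known as a target of the amino acid stress factor ATF4. Its window held 4420 and 3777 bp in WT and 1697 and 1708 bp in PA, a difference of -2396 bp (SE 322), and the PA livers were within 11 bp of each other. Fam124a held 4199 and 4938 bp in WT and 1755 and 2217 bp in PA, Serpina9, a serine protease inhibitor, 4358 and 5000 bp in WT and 2786 and 2222 bp in PA, and Zdhhc14, a palmitoyltransferase, 5000 and 4389 bp in WT and 2593 and 2644 bp in PA. Adjusted p in limma lay between 0.141 (Hsd3b5 and Cyp3a16) and 0.43 (Ugt3a1) for the 10. With other antibodies, Hsd3b5 and Sult5a1 were lower in both PA livers in 8 of 8, Cyp3a44, Cyp3a16 and Ugt3a1 in 7, Sult3a1 and Fam124a in 6 and Chac1 in 5. Serpina9 and Zdhhc14 were so in 1 of 8. At Zdhhc14 both PA livers were above both WT livers in 1 of 8, and the PA mean was above in 5. At Serpina9 the PA mean was below in 7 of 8. Of the 1018 promoters with H3K27ac below, 4.32% were lower with at least 5 of 8, as were 0.495% of all tested promoters. The start of Serpina9 and Zdhhc14, like those of Lpl and Auts2, was taken as the better covered end of the gene, since the table gives no strand for them. The Cyp3a genes are close copies of each other and reads may have been shared among them.

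**Figure D3:**
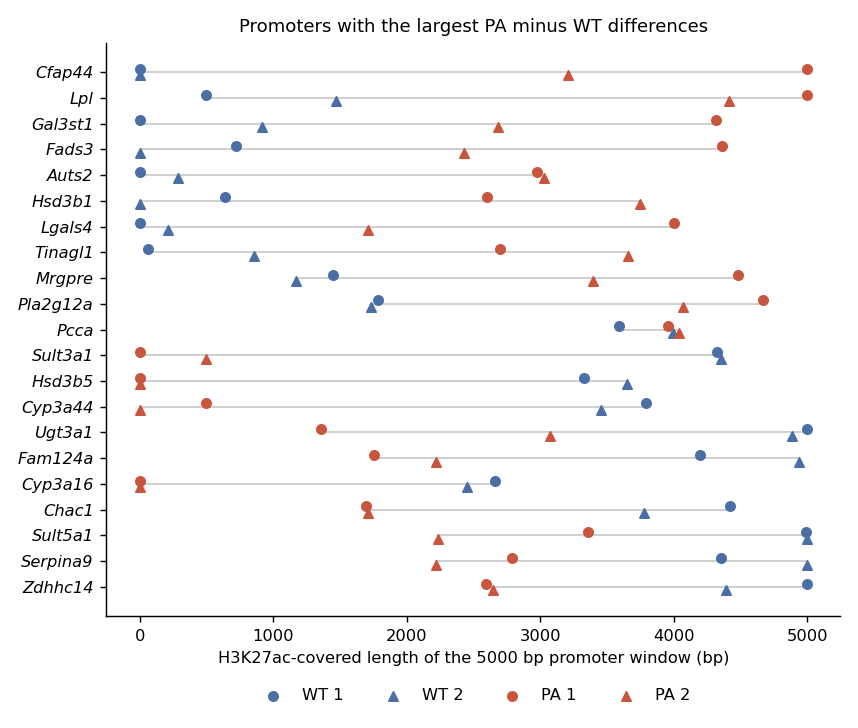
Length under H3K27ac peaks (bp) in the 5000 bp promoter window of the 10 genes with the largest gains and the 10 with the largest losses in PA whose groups do not overlap, with Pcca between them. Each symbol is 1 library, circles for liver 1 and triangles for liver 2, WT in blue and PA in red. At Sult3a1, Hsd3b5, Cyp3a44 and Cyp3a16 the PA livers sit at 500 bp or less, and at Pcca all 4 libraries lie between 3587 and 4037 bp.

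Of 16459 domains covered in at least 2 libraries, both PA livers were above both WT livers in 8204 (49.8%) and below in 1042 (6.33%), with a median difference of 1509 bp. After quantile normalization there were 3670 above and 3944 below. Leaving out 1 library gave 9439 above and 2823 below (without WT 1), 11284 and 1658 (without WT 2), 10721 and 1907 (without PA 1) and 9736 and 2663 (without PA 2). Limma called 0 domains higher and 0 lower (0% of 16459, smallest adjusted p 0.0985), with 3536 higher and 248 lower at an unadjusted p under 0.05. After quantile normalization it called 1 higher, Cps1, and 11 lower: Dntt, Opalin, Mup19, Cmah, Tll2, Nkx1-1, Mup-ps16, Cyp3a41b, Mup5, Uvssa and Blnk. Several of these are neighbours that share bases, since domains reach 50 kb to each side. With the spread of 36 libraries, which are not independent samples, 1485 domains were called higher and 126 lower. Among genes with both measured, those with the promoter above had the domain above in 2225 cases, below in 129 and overlapping in 1376. Those with the promoter below had the domain above in 358 cases, below in 120 and overlapping in 486. Both measures come from the same 4 peak lists.

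The domain of Cps1 showed the largest gain, with 44375 and 55802 bp in WT and 90694 and 99486 bp in PA, a difference of 45001.5 bp (SE 5706). Its adjusted p was 0.0985 in limma on the values as deposited and 0.0391 after quantile normalization. Pparg, the nuclear receptor that drives lipid storage and is low in normal hepatocytes, held 39056 and 45859 bp in WT and 77967 and 70686 bp in PA (31869 bp (SE 4351)). Cdk6, a cell cycle kinase, held 43553 and 44751 bp in WT and 75581 and 70728 bp in PA, and Plcb1, a phospholipase C, 37098 and 48872 bp in WT and 74243 and 75291 bp in PA. In these 4 domains the PA mean was between 1.66 and 1.90 times the WT mean, and the groups did not overlap. Srgap2 held 67063 and 67930 bp in WT and 97662 and 102620 bp in PA, and Tcf7l1, a transcription factor of the Wnt pathway, 58095 and 68758 bp in WT and 92971 and 98281 bp in PA. Long domains made up the rest: Vps13d, a lipid transfer protein, with 144696 and 149099 bp in WT and 184868 and 180101 bp in PA, Gse1 with 110736 and 123841 bp in WT and 146203 and 158653 bp in PA, Pde4d, a cyclic AMP phosphodiesterase, with 74180 and 90243 bp in WT and 129213 and 104760 bp in PA, and Tmcc1 with 67244 and 86699 bp in WT and 111813 and 102349 bp in PA. In long domains a small relative change makes a large difference in bp. Adjusted p in limma lay between 0.0985 and 0.136 for the 10.

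Cmah showed the largest loss, with 67597 and 87033 bp in WT and 26136 and 31564 bp in PA, a difference of -48465 bp (SE 6522.5) and an adjusted p of 0.0985 in limma (0.00778 after quantile normalization). Dntt held 21098 and 20559 bp in WT and 1190 and 2693 bp in PA (-18887 bp (SE 1553), adjusted p = 0.0985 and 0.00661 in limma). Cyp3a16 held 23033 and 15717 bp in WT and 0 and 2363 bp in PA, and Mup-ps16 19007 and 24447 bp in WT and 3095 and 4262 bp in PA (0.0985 and 0.00778). The mean in PA was 0.373 of that in WT at Cmah, 0.0932 at Dntt, 0.0610 at Cyp3a16 and 0.169 at Mup-ps16. The other 6 differed less by ratio and more between the PA livers: Lyrm4, a factor of iron-sulfur cluster assembly, with 52945 and 48099 bp in WT and 41989 and 23144 bp in PA, Banp with 62068 and 74047 bp in WT and 47513 and 53825 bp in PA, Cradd with 63267 and 70016 bp in WT and 43079 and 59806 bp in PA, Osbpl8 with 64668 and 72217 bp in WT and 44606 and 62209 bp in PA, Shld1 with 47272 and 49816 bp in WT and 39431 and 28904 bp in PA and Cdk15 with 57030 and 56546 bp in WT and 34653 and 50967 bp in PA. Both PA livers were below both WT livers with 8 of 8 other antibodies at Cmah, Dntt and Mup-ps16 and with 7 at Cyp3a16, but with 1 to 6 at the last 6. Of the 1042 domains with H3K27ac below, 10.5% were lower with at least 6 of 8, as were 0.772% of all tested domains. The 10 gained domains were above with at least 6 of 8 other antibodies, as were 42.9% of the 8204 domains with H3K27ac above and 27.2% of all tested domains.

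**Figure D4:**
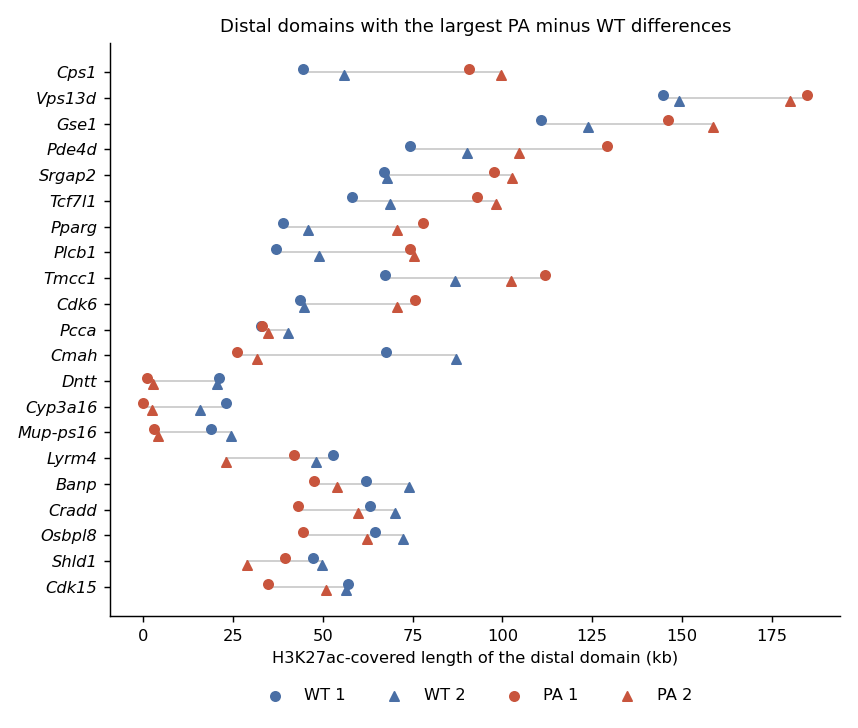
Length under H3K27ac peaks (kb) in the distal domain, which is the gene with 50 kb on each side without promoter windows, for the 10 largest gains and the 10 largest losses in PA whose groups do not overlap, with Pcca between them. Circles are liver 1 and triangles liver 2, WT in blue and PA in red. Cps1 lies near 50 kb in WT and above 90 kb in PA, and Dntt, Cyp3a16 and Mup-ps16 lie below 5 kb in PA.

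Several of the losses lay next to each other. In windows of 500 kb along the genome, both PA livers had less covered length than both WT livers in 238 of 3981 windows and more in 2103. The largest loss was on chromosome 13 between 24000001 and 24500000, the window of Cmah and Carmil1, with 75446 and 97335 bp in WT and 39867 and 44912 bp in PA. The next, on chromosome 13 from 112000001 to 112500000, holds Ankrd55 and Il6st, the shared receptor of interleukin-6 type cytokines, with 119588 and 133105 bp in WT and 101861 and 102730 bp in PA. The Mup cluster on chromosome 4 followed with 69355 and 94423 bp in WT and 55148 and 62509 bp in PA, and the Cyp3a cluster on chromosome 5 with 125703 and 125931 bp against 101287 and 105654 bp. The window of Sult3a1 and Sult3a2 on chromosome 10 held 30642 and 27456 bp in WT and 7918 and 15645 bp in PA, and that of Cradd and Socs2, an inhibitor of growth hormone signalling, 105658 and 115378 bp against 83301 and 97711 bp. Gains were led by the window of Cdkn1a, a cell cycle inhibitor, on chromosome 17, with 121184 and 134006 bp in WT and 179091 and 182450 bp in PA, that of Irf2bp2 and Tomm20 on chromosome 8, with 296341 and 293557 bp against 358321 and 337571 bp, and that of Cps1 on chromosome 1, with 63405 and 77595 bp against 115802 and 124844 bp.

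The lists that follow are read against the counts over all tested genes. At promoters 29.4% were above and 7.64% below, or 16.1% and 19.3% after quantile normalization. At distal domains the shares were 49.8% and 6.33%, or 22.3% and 24%. A window at 5000 bp in either WT liver cannot lie above, and 785 of 13330 tested windows were full in all 4 livers. Among lists, 7 of 20 PPARA target windows were full, with 9 of 16 lipogenic, 8 of 18 lipoprotein, 8 of 16 bile acid and 7 of 12 growth hormone windows. The lists were chosen with earlier results of these data known, so these counts describe and do not test. For genes of propionate and methylmalonate metabolism, the pathway interrupted in PA, both PA livers were above both WT livers in 4 of 17 promoter windows and below in 0. The median difference was 219 bp, against 150.25 bp over all. Of the 17 windows 1 was above and 4 below after quantile normalization (median -25.8 bp). The 4 above as deposited were Abat, which breaks down GABA, with 3107 and 4241 bp in WT and 4371 and 5000 bp in PA, the succinyl-CoA ligase subunit Sucla2 with 4081 and 3844 bp in WT and 4872 and 4794 bp in PA, Acss1, a mitochondrial acyl-CoA synthetase, with 635 and 840 bp in WT and 859 and 1185 bp in PA, and Suclg1 with 3563 and 3432 bp in WT and 3833 and 3600 bp in PA. Their distal domains were above in 7 of 16 and below in 1, Acss3, a propionyl-CoA synthetase, with 25570 and 32314 bp in WT and 22178 and 21537 bp in PA. Of the 16 domains 1 was above and 5 below after quantile normalization (median -653.8 bp). Acss3 was named after its values were seen, as were all genes given below for distal domains alone.

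Branched-chain amino acid breakdown had 4 of 17 promoters above and 1 below, with a median of 210 bp, and 2 were above and 2 below after quantile normalization (median 0 bp). Dbt, a subunit of the branched-chain keto acid dehydrogenase, held 2934 and 3363 bp in WT and 4102 and 5000 bp in PA, and Acat1, which cleaves acetoacetyl-CoA, 3836 and 4208 bp in WT and 5000 and 4633 bp in PA. Mccc1, a carboxylase of leucine breakdown, held 2519 and 2377 bp in WT and 3250 and 2756 bp in PA. Bckdha, another dehydrogenase subunit, lay below with 4494 and 4497 bp in WT and 4264 and 3825 bp in PA. Among distal domains 6 of 17 were above and 2 below, and those above included Bcat2, the transaminase, with 33727 and 34221 bp in WT and 46120 and 43114 bp in PA and Bckdk, the kinase that inhibits the dehydrogenase, with 8427 and 9057 bp in WT and 15730 and 13808 bp in PA. Below lay Ppm1k, the phosphatase that activates the dehydrogenase, with 26584 and 29119 bp in WT and 25979 and 23430 bp in PA, and Bcat1 with 5059 and 4688 bp in WT and 4468 and 4011 bp in PA. Of the 17 domains 4 were above and 5 below after quantile normalization (median -996.6 bp).

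In the tricarboxylic acid cycle, which receives the carbon of propionate as succinyl-CoA, 8 of 18 promoters were above and 0 below, with a median difference of 384.75 bp (118.9 bp after quantile normalization, 4 above and 1 below). Ogdh, the oxoglutarate dehydrogenase, held 2300 and 3822 bp in WT and 4207 and 4664 bp in PA, Idh3g 2007 and 2793 bp in WT and 3912 and 2960 bp in PA and Sdhd, a succinate dehydrogenase subunit, 3570 and 3792 bp in WT and 4074 and 4330 bp in PA. Of 16 distal domains 8 were above and 0 below, led by Idh2 with 55184 and 65171 bp in WT and 70871 and 77154 bp in PA, and 3 were above and 2 below after quantile normalization (median 277.4 bp). The urea cycle list had 1 of 10 promoters above, Arg1, arginase, with 4427 and 4496 bp in WT and 5000 and 4648 bp in PA, and 5 of its windows were full in all 4 livers. Its distal domains were above in 5 of 10 and below in 0, with Cps1 given above, Ass1 at 30819 and 30615 bp in WT and 54876 and 43166 bp in PA and Arg1 at 26745 and 30780 bp in WT and 33919 and 35168 bp in PA. The median was 3206.5 bp, and 3 were above and 2 below after quantile normalization (median -404.7 bp).

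PPARA, the fasting-activated nuclear receptor of liver, drives fatty acid oxidation and ketogenesis. Its targets had 6 of 20 promoters above and 0 below (29.4% and 7.64% of all), and 16 of 20 distal domains above and 0 below (49.8% and 6.33% of all). The median distal difference was 7505.5 bp, against 1509 bp over all domains. These domains also held more, with medians of 23446.5 bp in WT and 31625 bp in PA, against 8203 and 10358 bp over all domains. After quantile normalization the median difference was 2702 bp, with 4 of 20 above and 2 below. The shares over all domains were then 22.3% above and 24% below. Cyp4a14, a fatty acid hydroxylase, held 23294 and 8798 bp in WT and 35247 and 28356 bp in PA in its domain, Cyp4a10 36729 and 17803 bp in WT and 50327 and 40418 bp in PA, and the hormone gene Fgf21 18105 and 23607 bp in WT and 32272 and 30501 bp in PA. The 2 Cyp4a genes are neighbouring close copies with shared bases, and WT 2 was far below WT 1 at both. At promoters Vnn1, a pantetheinase, held 2285 and 2960 bp in WT and 3591 and 3700 bp in PA, Cidec, a lipid droplet protein, 4499 and 3676 bp in WT and 5000 and 5000 bp in PA, Acot2, a mitochondrial thioesterase, 3235 and 3428 bp in WT and 4066 and 3748 bp in PA and Cyp4a31 4235 and 3986 bp in WT and 4861 and 4462 bp in PA.

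Enzymes of mitochondrial fatty acid oxidation were measured with 3 of 16 promoters above and 2 below and a median of 20.75 bp, and 3 were above and 3 below after quantile normalization (median -108.6 bp). Cpt2, which loads the acyl chain in the matrix, held 3172 and 3235 bp in WT and 4417 and 4156 bp in PA, Acadvl 1900 and 2108 bp in WT and 3365 and 2716 bp in PA and Acads 1561 and 2718 bp in WT and 3028 and 3022 bp in PA, the last 2 being dehydrogenases of very long and short chains. Decr1 lay below with 3459 and 3976 bp in WT and 3436 and 3400 bp in PA. Lipoprotein genes had 4 of 18 promoters above and 0 below, with a median of 4.5 bp, and 2 were above and 2 below after quantile normalization (median 0 bp). Beside Lpl, the lipoprotein receptor gene Vldlr held 2072 and 2112 bp in WT and 2924 and 2794 bp in PA, Mttp, which loads lipid onto apolipoprotein B, 3495 and 3236 bp in WT and 3551 and 3883 bp in PA, and Lmf1, a maturation factor of lipases, 1663 and 1747 bp in WT and 1780 and 1885 bp in PA. The distal domain of Lpl held 4437 and 4716 bp in WT and 19312 and 11732 bp in PA, so the PA livers were above at both places. Lipoprotein gene domains were above in 11 of 18 and below in 1, or 2 and 3 after quantile normalization.

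For cholesterol synthesis and uptake 5 of 14 promoters were above and 0 below (median 237 bp, and 93.4 bp after quantile normalization). Cyp51 held 3010 and 3060 bp in WT and 4732 and 3484 bp in PA, Fdft1, the squalene synthase, 3541 and 4349 bp in WT and 5000 and 5000 bp in PA, Lss 2322 and 3097 bp in WT and 3515 and 3112 bp in PA and Idi1 3775 and 3778 bp in WT and 4200 and 4355 bp in PA. Cyp51 and Lss act after squalene synthase in the pathway. The distal domain of Fdft1 held 65876 and 70953 bp in WT and 82371 and 88743 bp in PA. Cholesterol gene domains were above in 6 of 14 and below in 0, or 2 and 2 after quantile normalization. Lipogenic genes had 1 of 15 promoters above, Scd1, a desaturase, with 4558 and 4697 bp in WT and 5000 and 4904 bp in PA, and 1 below, Acacb, which makes malonyl-CoA, with 489 and 632 bp in WT and 0 and 0 bp in PA. Their distal domains were above in 4 of 16 and below in 3, and 1 was above and 7 below after quantile normalization (median -2055 bp). Gluconeogenic genes had 0 of 11 promoters on either side, with 5 of 12 windows full in all 4 livers. Their domains were above in 4 of 12, among them the regulators Ppargc1a (33635 and 40247 bp in WT and 57313 and 53664 bp in PA) and Foxo1 (27915 and 27937 bp in WT and 46479 and 43969 bp in PA), and below in 1, Pck2 (13485 and 13385 bp in WT and 12514 and 11754 bp in PA), which like Ppm1k and Bcat1 was named after its values were seen. Of the 12 domains 2 were above and 4 below after quantile normalization (median -174.7 bp).

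Genes of xenobiotic and antioxidant response had 6 of 22 promoters above and 1 below, while 2 were above and 3 below after quantile normalization (median 0 bp). They had 14 of 21 distal domains above and 0 below. The distal median was 6655 bp, and 2829 bp after quantile normalization, when 9 were above and 0 below. The glutathione transferases Gsta2 (2930 and 3823 bp in WT and 5000 and 5000 bp in PA) and Gsta1 (654 and 1671 bp in WT and 2565 and 2652 bp in PA) led at promoters, with Gclm, a subunit of the enzyme that starts glutathione synthesis, at 3386 and 3163 bp in WT and 4200 and 3549 bp in PA. Hmox1, heme oxygenase 1, lay below with 4784 and 4696 bp in WT and 3600 and 4489 bp in PA. In distal domains Gstm2 held 36566 and 32806 bp in WT and 55675 and 53982 bp in PA and Gstm3 26367 and 23167 bp in WT and 42979 and 44792 bp in PA. Gsta1 and Gsta2, like Gstm2 and Gstm3, are close copies and neighbours. Bile acid genes had 1 of 16 promoters above and 3 below, and 1 was above and 4 below after quantile normalization (median 0 bp). Abcc4, an efflux transporter, was the one above, with 1974 and 1994 bp in WT and 3561 and 3525 bp in PA. Slco1a1, an uptake transporter, lay below with 5000 and 5000 bp in WT and 2728 and 3361 bp in PA, as did Cyp7b1, an oxysterol hydroxylase, with 4875 and 3881 bp in WT and 2860 and 3179 bp in PA and Cyp27a1 with 4751 and 4490 bp in WT and 4111 and 4436 bp in PA. The distal domain of Abcc4 held 11106 and 15013 bp in WT and 23496 and 23890 bp in PA. Bile acid gene domains were above in 8 of 16 and below in 1, or 2 and 5 after quantile normalization.

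Genes with sex-biased expression in mouse liver had a negative median at promoters in both lists, on the values as deposited. So did the Kupffer, stellate, cholangiocyte and T and NK cell markers, each with 1 to 3 tested promoters. All of these stayed negative after quantile normalization. The lists of propionate metabolism, mitochondrial fatty acid oxidation, stress response, lysine acylation and sinusoidal endothelial markers then had a negative median as well. The male-biased list had 2 of 13 tested promoters above and 5 below (7.64% of all were below), with a median difference of -326 bp (-593.3 bp after quantile normalization). All 5 below differed by at least 1000 bp, against 0.945% of all windows. This list too was chosen with earlier results of these data known, so the contrast describes its members and tests nothing. They include Hsd3b5, Slco1a1 and Cyp7b1, given above, C6, a complement component, with 1801 and 2103 bp in WT and 500 and 512 bp in PA, and Elovl3, a fatty acid elongase, with 1980 and 2934 bp in WT and 863 and 1179 bp in PA. The summed coverage of the 16 promoters was 38.1 and 38.1 kb in WT and 26.5 and 31.4 kb in PA. The distal domain of Elovl3 held 21098 and 14735 bp in WT and 6050 and 4655 bp in PA. That of Cyp4a12a, a male-biased fatty acid hydroxylase, went the other way with 1280 and 3475 bp in WT and 7220 and 9281 bp in PA. Male-biased domains were above in 3 of 16 and below in 5, or 1 and 10 after quantile normalization.

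The female-biased list had 3 of 16 promoters above and 4 below, with a median of -90.75 bp (-290.75 bp after quantile normalization). Sult3a1, Cyp3a44 and Cyp3a16 were 3 of the 4 below. Sult2a1, another sulfotransferase, lay above with 0 and 3120 bp in WT and 3951 and 3994 bp in PA, and the WT livers differed from 0 to most of the PA values. The domain of Cyp3a41a held 9767 and 17548 bp in WT and 0 and 1238 bp in PA. That of Cyp2b9 held 21034 and 28258 bp in WT and 47408 and 31257 bp in PA, above in PA. Female-biased domains were above in 5 of 16 and below in 5, or 3 and 7 after quantile normalization. The animals were all female. Growth hormone, whose pattern of secretion sets these sex differences, signals through JAK2 and STAT5. Of the 12 genes of that axis 2 promoters were above, Jak2 (4646 and 3781 bp in WT and 5000 and 5000 bp in PA) and Stat5a (3865 and 3806 bp in WT and 4880 and 3889 bp in PA), and 0 below. Of these promoters 1 was above and 1 below after quantile normalization (median 0 bp). In distal domains 4 were above and 3 below, while 0 were above and 5 below after quantile normalization (median -4464 bp). Those below included Igf1, the main hormone that growth hormone induces, with 82327 and 88298 bp in WT and 76162 and 79772 bp in PA, and its binding protein Igfbp2 with 41063 and 40388 bp in WT and 38802 and 26205 bp in PA.

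Stress genes had 3 of 15 promoters above and 2 below, and 0 were above and 3 below after quantile normalization (median -82.9 bp). Apart from Chac1, these differences were below 1000 bp. Psat1, of serine synthesis, lay above with 500 and 843 bp in WT and 882 and 1449 bp in PA. Trib3, an ATF4 target, also lay above, with 3666 and 3663 bp in WT and 4013 and 3777 bp in PA. Phgdh, the enzyme that starts serine synthesis, lay below with 637 and 811 bp in WT and 500 and 0 bp in PA. The domain of Hspa5, the chaperone of the endoplasmic reticulum, held 16788 and 14744 bp in WT and 23348 and 22599 bp in PA. Stress gene domains were above in 10 of 16 and below in 1, or 3 and 3 after quantile normalization. Acute phase genes had 6 of 16 promoters above and 0 below, and 2 were above and 1 below after quantile normalization (median 6.4 bp). Lcn2, lipocalin 2, held 2788 and 1881 bp in WT and 3660 and 3674 bp in PA, Saa2, serum amyloid A2, 1851 and 955 bp in WT and 1960 and 3995 bp in PA, Serpina3n 4593 and 4470 bp in WT and 5000 and 5000 bp in PA and Apcs 3976 and 4115 bp in WT and 4184 and 4616 bp in PA. The domain of Cp, ceruloplasmin, held 23226 and 22996 bp in WT and 34500 and 35628 bp in PA. Acute phase domains were above in 6 of 16 and below in 0, or 2 and 2 after quantile normalization. The clock had 6 of 17 promoters above and 0 below, and 2 were above and 1 below after quantile normalization (median 0 bp). These included the activators Arntl (3641 and 2508 bp in WT and 4031 and 4136 bp in PA), Npas2 (1195 and 2241 bp in WT and 2507 and 2351 bp in PA) and Clock (4178 and 3983 bp in WT and 5000 and 4492 bp in PA), together with Hlf (2788 and 3411 bp in WT and 3747 and 3665 bp in PA). Domains of the repressors Per2 (33538 and 40107 bp in WT and 45155 and 47707 bp in PA) and Nr1d1 (27206 and 27622 bp in WT and 33947 and 37428 bp in PA) were also above. Clock domains were above in 9 of 17 and below in 0, or 4 and 3 after quantile normalization. The labels used here give no hour of tissue collection, so time of day and genotype cannot be told apart for the clock.

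Among 18 writers and erasers of lysine acylation and suppliers of acyl-CoA, 3 promoters were above and 0 below: Kat2a, an acetyltransferase, with 1371 and 1905 bp in WT and 2212 and 2441 bp in PA, Hdac3, a deacetylase, with 3443 and 3304 bp in WT and 3664 and 3899 bp in PA, and Sirt5, which removes acidic acyl groups, with 2110 and 1869 bp in WT and 2410 and 2117 bp in PA. Of the 18 windows 1 was above and 5 below after quantile normalization (median -74.9 bp). The domain of Kat8, the acetyltransferase of H4K16, held 9063 and 9515 bp in WT and 16750 and 15498 bp in PA. Domains of this list were above in 9 of 17 and below in 0, or 5 and 2 after quantile normalization. Ribosomal protein genes had 11 of 16 promoters above and 0 below, with a median of 572.25 bp (304 bp after quantile normalization, 6 above and 1 below). Rpl5 held 1596 and 1748 bp in WT and 3263 and 3338 bp in PA, Rps4x 1494 and 1878 bp in WT and 2633 and 2706 bp in PA and Rpl10a 3552 and 3623 bp in WT and 4166 and 4863 bp in PA. Oxidative phosphorylation had 6 of 16 above and 0 below, among them Cox4i1 (4115 and 3027 bp in WT and 4473 and 5000 bp in PA), Ndufa4 (3487 and 3638 bp in WT and 4407 and 3972 bp in PA), Ndufb5 (2455 and 2123 bp in WT and 2654 and 2834 bp in PA) and Cox7a2 (2981 and 3329 bp in WT and 3421 and 3561 bp in PA), while 2 were above and 3 below after quantile normalization (median 31.7 bp). Hepatocyte transcription factors had 0 of 16 promoters above and 1 below, Nr1i2, the pregnane X receptor. It held 4868 and 4766 bp in WT and 4617 and 4616 bp in PA. The median window of the list held 4991 bp in WT and 5000 bp in PA, and 8 of 16 were full in all 4 livers. Distal domains of these factors were above in 8 of 16 and below in 1 (median 2841.5 bp). After quantile normalization 0 were above and 7 below (median -1651 bp). No gene of any list passed limma at an adjusted p of 0.05 on the values as deposited, at promoter or domain.

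Among 17 tested promoters of markers of other cells, 3 were above and 2 below, against 29.4% and 7.64% of all windows. Coverage was above in PA for Lyve1 of sinusoidal endothelium (4414 and 3237 bp in WT and 4538 and 5000 bp in PA), Elane of neutrophils (3661 and 3587 bp in WT and 5000 and 4073 bp in PA), Mylpf of skeletal muscle (1057 and 819 bp in WT and 2581 and 1997 bp in PA), and below for Cd4 of T cells (1443 and 1406 bp in WT and 806 and 923 bp in PA) and Cldn7 of cholangiocytes (1125 and 679 bp in WT and 500 and 674 bp in PA). In distal domains these markers had 19 of 60 above and 7 below, against 49.8% and 6.33% of all domains. Those below were 2 of 4 tested neutrophil domains and 1 each of 10 endothelial, 9 stellate, 6 kidney, 5 neuron and 3 Kupffer domains. The genes named next all lay above. The endothelial list had 4 of 10 above and 1 below, where 4 were above and 3 below after quantile normalization (median 39.6 bp), with Stab2 at 35472 and 39505 bp in WT and 55727 and 47672 bp in PA and Eng at 31054 and 36969 bp in WT and 46763 and 49018 bp in PA, and the cholangiocyte gene Sox9 held 3209 and 6294 bp in WT and 13439 and 12052 bp in PA. Their part in the genotype difference was not tested.

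Peaks of the other 8 antibodies were then read at the H3K27ac regions. They recognize H3K9ac, H4K16ac and H4K16bu (butyrylation) on the same preparations A, and H4K5ac, H4K5pr (propionylation), H4K12ac, H4K12pr and H4K16pr on preparations B. At regions that H3K27ac listed in PA only, between 5.30% and 22.2% carried a peak of another antibody in WT and between 23.1% and 44.7% in PA, with means of 14.4% and 35.1%. Both PA libraries lay above both WT libraries for 8 of 8 antibodies. Over all H3K27ac regions the means were 35.7% and 42.8%, and both PA libraries were above for 7 of 8, H4K16bu being the exception. The mean difference was 20.6 percentage points at regions of PA only and 7.08 points at all regions. At regions of PA only it was smallest for H4K16bu (7.69% and 23.1%) and largest for H4K5pr (14.8% and 39.3%).

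At regions of WT only the other antibodies differed among themselves. H3K9ac was listed at 37.3% of them in WT and 18.6% in PA, H4K16bu at 26.004% and 8.90%, and H4K12pr at 33.1% and 28.7%, and these 3 had both PA libraries below both WT libraries. For the remaining 5 the groups overlapped, with H4K5pr at 29.2% and 29.5% and H4K5ac at 33.8% and 33.8%. The H3K9ac lists hold gaps, with between 11 and 42 promoter windows at 0 in 1 library and at least 4000 bp in the other 3, against 0 to 2 for the rest and 0 in each H3K27ac list. Without H3K9ac the means over 7 antibodies were 14.01% and 34.9% at regions of PA only and 26.6% and 22.8% at regions of WT only. Over the 8 antibodies the mean share was 22.2% in WT and 42.5% in PA at PA-only promoter regions, and 14.01% and 34.6% at PA-only distal regions. The livers of preparation A are those of the H3K27ac libraries.

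**Figure D5:**
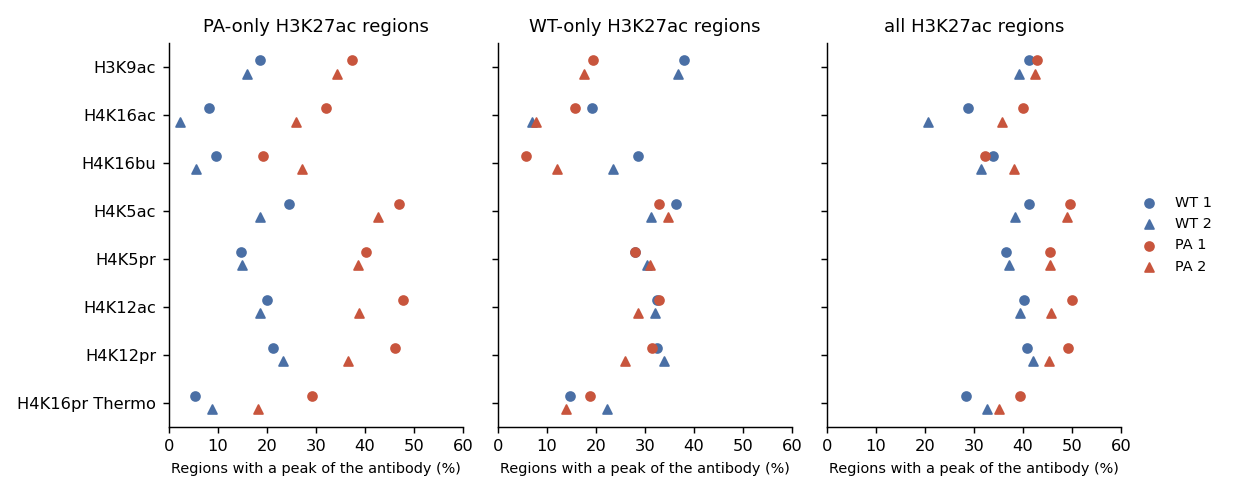
Share of H3K27ac regions (%) that carry a peak of each of the 8 other antibodies, at regions listed in PA only, in WT only and at all regions, for each library (circles, liver 1; triangles, liver 2; WT blue, PA red). In the left panel the PA libraries lie to the right of the WT libraries for 8 of 8 antibodies, and in the middle panel they lie to the left for H3K9ac, H4K16bu and H4K12pr.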

How the data were processed

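Native ChIP-seq peak lists from 2 WT and 2 PA livers with an H3K27ac antibody were compared, with 32 lists of 8 other antibodies beside them. The deposited lists hold only the chromosome, start and end of each peak, 1 list per library, on GRCm38 (mm10), with no peak shorter than 500 bp. The authors used HOMER 4.10, R 4.1.2, bedtools 2.31.0, Bowtie2 2.5.1, cutadapt 3.5 and SAMtools 1.17, per the submitters' processing notes, which give these tools no role. Caller settings, use of the input and depth are not stated in the labels or files used here. No interval for counting error can therefore be given.

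Starts came from RefSeq for 21627 protein-coding genes. For 4354 without strand the better covered end was used, and for 2761 with several candidate starts the one with the highest mean coverage over 38 libraries. Covered bp per promoter window, distal domain and merged region were tested for features covered in at least 2 of 4 libraries with limma 3.58.1 (trend, genotype only, Benjamini-Hochberg adjustment over all features, R 4.3.3). The fit was tested on simulated data. Other steps used pandas 2.3.3, numpy 2.4.6 and scipy 1.17.1 under Python 3.11.15, with figures by matplotlib 3.10.9. With 2 livers a group, each limma p-value sets the genotype difference against the spread within genotypes, moderated over all features. That spread rests on these 4 samples alone.

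Named genes are Pcca, the 10 largest gains and 10 largest losses whose groups do not overlap, for promoters and domains, the 5 leading regions of each class, and up to 4 promoters of each list. Predicted genes and overlapping windows were left out, and 1 gene that the rule names is not reported here. Members and the 33 gene lists were chosen with earlier results of these data known. Alternatives covered normalization, peak number and length, filter, trend, window and domain size, merging, the source of the spread, the replicate number and leaving out each library.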

Additional observations from a re-analysis of the deposited data

How the results depend on the processing

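No measure of depth or peak height was at hand, so thresholds act on length alone. The higher peak width of PA reversed to -9.25 bp without WT 1 (range -9.25 to 100.25 bp over the 4 libraries left out), and the lower promoter share became 0.173 points higher with equal numbers of peaks. Quantile normalization gave 1 domain called higher and 11 lower, 3670 domains above and 3944 below, and 2146 promoters above and 2579 below (386 and 258 by at least 1000 bp). A spread shared by 36 libraries gave 1485 and 126 domains, 6126 and 2016 regions and 43 and 15 promoters called higher and lower. Those 36 libraries are not independent samples, since each liver preparation gave several. Leaving out 1 library gave 0 to 367 promoters called higher and 0 to 2 lower, 5318 to 6962 above and 1930 to 2877 below (808 to 1424 and 189 to 329 by at least 1000 bp), and 9439 to 11284 domains above and 1658 to 2823 below. Windows of 1 kb gave 2028 promoters above, and 82 above and 25 below by at least 1000 bp; windows of 5 kb gave 2129 and 295.

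For regions, leaving out 1 library gave 6788 to 18891 distal in PA only, 3607 to 11047 in WT only, 4135 to 5359 wider and 1344 to 1978 narrower, and 390 to 641, 203 to 366, 1844 to 2653 and 368 to 690 at promoters. Peaks of at least 1000 bp left 2130 distal regions in PA only, 577 in WT only and 45 promoter regions in WT only. Cover of 50% gave 434 and 120 promoter regions in PA only and WT only, and 1238 wider and 373 narrower distal regions. A promoter distance of 2.5 kb gave 384 and 148. Size thresholds of 500 and 2000 bp gave 5268 and 1162 wider and 1508 and 249 narrower distal regions, and 2774 and 667 wider and 515 and 90 narrower promoter regions. The mean difference of the other antibodies was 14.9 points (PA only) and -10.4 points (WT only) with equal numbers of peaks, and 32.4 and -15.5 points with peaks of at least 1000 bp. Single genes that changed sign were Kat2a (-11 bp) with 1 kb windows, Lmf1 (-45.75 bp), Suclg1 (-25.75 bp), Trib3 (-25.5 bp) and Pcca (-60.7 bp) after quantile normalization, Pcca (-479 bp) with 5 kb windows, and the domain of Pcca (1068 bp) without WT 2, in a range of -6512 to 1068 bp over the libraries left out. The cause was not tested. With the replicate number as a block limma called 0 promoters, 0 domains and 0 regions; at an unadjusted p under 0.05 it had 857 and 191 promoters, 3810 and 291 domains and 6171 and 2151 regions higher and lower. Same-numbered livers shared deviations with r = 0.00528 across promoters and 0.0781 across domains, over only 2 pairs, so the numbers were not taken to pair them.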
